A study of Homo sapiens with 16 samples.

Results

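Clone D of the myeloma cell line KMS12PE was compared with the parental KMS12PE population in RNA counts per gene. The comparison holds 4 of the 16 libraries of the study, chosen by their labels, namely replicates 1 and 3 of clone D and replicates 1 and 3 of the parental cells. KMS12PE is a human plasma cell line that carries t(11;14), a translocation that drives the cell cycle gene CCND1. Clone D is a DTEP clone grown from a single cell that persisted under high-dose venetoclax, is labelled as resistant and was kept in 100 nM of the drug. The parental population is labelled WT and sensitive, and no dose is given for it. Effects of venetoclax, of selection and of descent from a single cell therefore cannot be told apart, and clone D is 1 clone. Clones A and C of the same line, labelled and kept in the same way, have 2 libraries each and entered the same fit. Nothing in the labels says that the replicates were separate cultures, so p-values measure only the spread between these libraries.

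Venetoclax binds BCL2, a protein of the outer mitochondrial membrane that holds pro-death BH3-only proteins in check. When these are released they turn on the pore-forming proteins BAX and BAK1, and the related survival proteins MCL1 and BCL-XL can take over the holding role. Plasma cells are antibody-secreting cells at the end of the B lineage, and myeloma cells keep much of their surface antigen and transcription factor programme.

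Levels are given as CPM, a gene's counts relative to the TMM-scaled library total, and log2FC is the log2 fold change of clone D minus parental from edgeR. Its standard error (SE) was taken as the absolute log2FC divided by the square root of edgeR's quasi-likelihood F statistic. Total counts were 6491027 and 10882837 in clone D and 5831289 and 6340658 in parental cells, and 3 counts corresponded to 0.212 to 0.527 CPM over the 8 KMS12PE libraries. The replicates of clone D differed more from each other than those of any other population, with an SD of the log2 difference of 0.34 in clone D, 0.23 in clone A, 0.25 in clone C and 0.27 in parental cells. Ribosomal protein genes took 6.03% to 7.22% of the counts in these libraries. All 10 plasma cell markers were listed, with a summed level of 4342 and 4079 CPM in clone D and 3880.1 and 4208 CPM in parental cells. None of 13 myeloid and erythroid markers was listed. Of 12 T and NK cell markers CD3G and CD8A were listed, together at 1.89 and 2.76 CPM in clone D and 5.97 and 4.87 CPM in parental cells. Of 13 stromal and epithelial markers PECAM1 and EPCAM were listed, together at 62.6 and 52.6 CPM in clone D and 109 and 115 CPM in parental cells. EPCAM, an epithelial adhesion protein, fell (log2FC -1.10, adjusted p = 0.00102), as did CD3G, a T cell receptor chain, with 0 and 1 counts in clone D, against 10 and 7 counts in parental cells (adjusted p = 0.0339), a call lost without any 1 of the 4 libraries (up to 0.155). The part of these markers in the results was not tested.

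Clone D differed from the parental cells in many genes, and the largest differences were losses. Of 12279 genes tested, 228 were higher in clone D (1.86%) and 406 were lower (3.31%) at an adjusted p under 0.05 in edgeR's quasi-likelihood test. At least 2-fold differences were called for 87 higher and 262 lower genes, and at least 4-fold differences for 37 higher and 171 lower genes. The table lists a gene when 4 or more of the 8 libraries reach 5 counts, as found from its values. A gene active in the 2 clone D libraries alone could therefore not be listed, whereas a gene silent in clone D alone could, and the excess of losses cannot be told apart from this filter. The counts fell to 140 higher and 222 lower genes when clone D replicate 3 was left out, to 99 and 199 without parental replicate 1 and to 100 and 205 without parental replicate 3. With replicate number as a block they were 894 higher and 1125 lower. In a fit of the 4 clone D and parental libraries alone they were 122 and 212, and 21 genes named here lost their call, namely BMF, CD38, ITGB7, CD70, VAV1, PLCG2, PDIA3, PSMB9, E2F2, EIF2AK3, DDIT4, PARP14, USP18, CYP51A1, FADS1, PLA2G16, LPCAT3, SCD, PDK1, NDUFV2 and ARID1B.

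**Figure D1:**
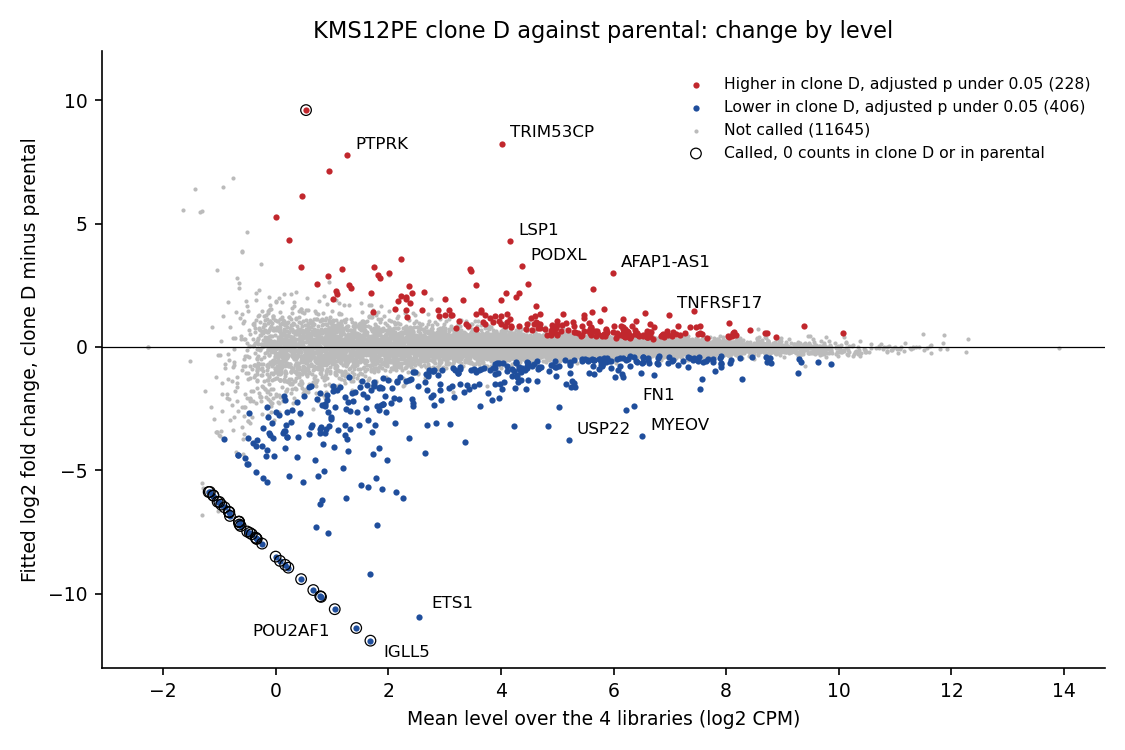
Fitted log2 fold change (clone D minus parental) against the mean level over the 4 libraries in log2 CPM, 1 point per gene tested. Red points are the 228 genes called higher and blue points the 406 called lower; circles mark called genes with 0 counts in either population, whose fitted value is no estimate of size, and most of them lie on the lower diagonal.

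A set of genes that are active in the parental cells was silent or nearly silent in clone D, including the transcription factor ETS1 and the B cell coactivator POU2AF1. In clone D 45 genes had 0 counts, against 9 in parental cells, 6 in clone A and 7 in clone C. Counting genes with at most 3 counts in clone D and a parental mean of at least 20 counts gave 21 genes, and the opposite pattern was met by 7. Among the 7, RGPD6, with 66 counts over clone D and 2 over parental cells, was not called (log2FC 4.66, adjusted p = 0.544 in edgeR). Its log2FC was -3.85 without clone D replicate 1. Folds of the genes of both patterns are given against a floor of 3 counts over the population where it had 0 counts, and with an exact 95% interval where it had 1 to 3. Both cover counting error only. In bulk RNA, fewer cells with a transcript and less of it per cell cannot be told apart.

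ETS1, a founding ETS-family transcription factor of lymphoid cells (chr11:128458761-128587558 in GRCh38), had 0 and 1 counts in clone D, against 741 and 897 counts in parental cells. The level was 2387-fold lower in clone D (95% interval 428 to 94344), and clones A and C stood near the parental level at 94.2 and 94.3 CPM in clone A and 162 and 147 CPM in clone C. The difference was called against parental cells (adjusted p = 9.14e-08) and against the mean of clones A and C (adjusted p = 4.76e-08). FLI1, the next listed gene on one side and another ETS-family factor, fell by 0.45 on the log2 scale (adjusted p = 0.0169). It was also lower than in parental cells in clone A (log2FC -0.33) and clone C (log2FC -0.33). On the other side KIRREL3 (log2FC 0.24) was not called, and ST3GAL4 beyond it rose (log2FC 1.17, adjusted p = 5.73e-04).

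POU2AF1 (chr11:111352252-111455630), which binds the OCT factors on octamer motifs and is needed for germinal centre B cells in mice, had 0 and 0 counts in clone D, against 201 and 218 counts in parental cells. It was at least 204-fold lower in clone D (adjusted p = 7.28e-06). In CPM these are 0 and 0 CPM in clone D, against 35.3 and 34.2 CPM in parental cells, and the other clones lay between at 4.49 and 4.02 CPM in clone A and 4.58 and 5.36 CPM in clone C. Clone D was lower than these clones as well (adjusted p = 7.00e-05). The flanking genes FDX1 and SIK2 had log2FC values of 0.11 and -0.065 and were not called.

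The lost genes took in the surface proteins CD53, CD44 and IL2RB. CD53, a tetraspanin of leukocytes, had 0 and 0 counts in clone D, against 78 and 94 counts in parental cells, so no count was found in clone D and the level was at least 83.6-fold lower. The fitted fold of parental cells over clone D was 1097, and that of clones A and C over clone D was 183. With 0 counts in clone D neither is an estimate of size, but the mean of clones A and C lay below parental cells. CD44, the hyaluronan receptor that binds cells to matrix, had 1 and 0 counts in clone D, against 78 and 79 counts in parental cells and was 229-fold lower (95% interval 40.5 to 9094). CD44 was also low in clone A, at 0.225 and 0.232 CPM in clone A and 4.41 and 2.96 CPM in clone C. IL2RB, the beta chain of the interleukin receptors for IL2 and IL15, had 1 and 1 counts in clone D, against 64 and 49 counts in parental cells and was 82.3-fold lower (95% interval 22.3 to 688). IL2RB was at 12.7 and 9.98 CPM in clone A and 11.2 and 9.74 CPM in clone C, so clone D stood apart from all 3 other populations. BIN2, a membrane-bending protein of leukocytes, was at least 85.0-fold lower, and SAMSN1, an adaptor of blood cells, at least 34.5-fold lower.

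The promoter of CD53 is shown because it holds the octamer that POU2AF1 complexes recognise, that of CD44 as another lost surface gene, and that of PTPRK as a gene nearly silent in the parental cells and active in clone D. They are RefSeq promoters in GRCh38.p14, 250 bases before to 50 after the gene start, written 5′ to 3′ on the gene's strand. CD53 lies at chr1:110870960-110871259 on the plus strand, CD44 at chr11:35138921-35139220 on the plus strand and PTPRK at chr6:128520550-128520849 on the minus strand. The motifs and these promoters were chosen after the lost genes were known. Capitals mark the octamer ATGCAAAT and the ETS motifs CCGGAAGT and CAGGAAGT on either strand.
CD53: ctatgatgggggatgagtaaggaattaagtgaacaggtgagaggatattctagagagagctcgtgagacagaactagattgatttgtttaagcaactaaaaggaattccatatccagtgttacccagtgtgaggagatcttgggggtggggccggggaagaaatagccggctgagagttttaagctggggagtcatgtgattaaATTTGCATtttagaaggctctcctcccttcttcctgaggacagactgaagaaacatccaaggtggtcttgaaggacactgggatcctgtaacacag
CD44: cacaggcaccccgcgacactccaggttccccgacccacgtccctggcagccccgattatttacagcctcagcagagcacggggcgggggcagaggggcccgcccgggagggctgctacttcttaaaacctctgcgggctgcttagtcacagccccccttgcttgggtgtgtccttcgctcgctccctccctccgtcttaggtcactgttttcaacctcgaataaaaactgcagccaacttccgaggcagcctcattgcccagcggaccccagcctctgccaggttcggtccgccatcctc
PTPRK: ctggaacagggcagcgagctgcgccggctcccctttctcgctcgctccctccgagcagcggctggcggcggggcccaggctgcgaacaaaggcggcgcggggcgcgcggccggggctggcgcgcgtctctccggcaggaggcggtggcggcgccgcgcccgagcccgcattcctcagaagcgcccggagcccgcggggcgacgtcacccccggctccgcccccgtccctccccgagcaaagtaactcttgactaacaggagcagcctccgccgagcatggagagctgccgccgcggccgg
The CD53 promoter has 1 octamer, written ATTTGCAT on this strand, that begins 46 bases before the start, and the promoters of CD44 and PTPRK have none of the 3 motifs. Of 27303 promoters 1.80% hold the octamer, 4.44% the first ETS motif and 3.20% the second. A promoter was found for 12 of the 21 lost genes, under 80%, so a comparison of their motif or base content is void. CD53 was the only 1 of these 12 with the octamer, and 0 held either ETS motif. A link between the loss of POU2AF1 or ETS1 and the other losses was not tested. ETS1, POU2AF1 and TNFRSF17 had no promoter entry.

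The remaining lost genes had varied roles. KCNMA1, the pore of the BK potassium channel, had 0 and 0 counts in clone D, against 128 and 118 counts in parental cells and was at least 119.5-fold lower in clone D. MYCN, the MYC relative of neural tumours, had 0 and 0 counts in clone D, against 24 and 40 counts in parental cells and was at least 31.1-fold lower. Both were present in clones A and C, where MYCN was at 4.27 and 5.65 CPM in clone A and 5.02 and 6.56 CPM in clone C. NAV1, a neuron navigator protein, PKIA, an inhibitor of protein kinase A, and EVI2A, a membrane protein gene within an NF1 intron, were at least 27.2-fold, 51.5-fold and 37.4-fold lower. For EVI2A the fitted fold over clone D was 492 in parental cells and 83.7 in clones A and C, whose mean thus lay below parental cells.

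**Figure D2:**
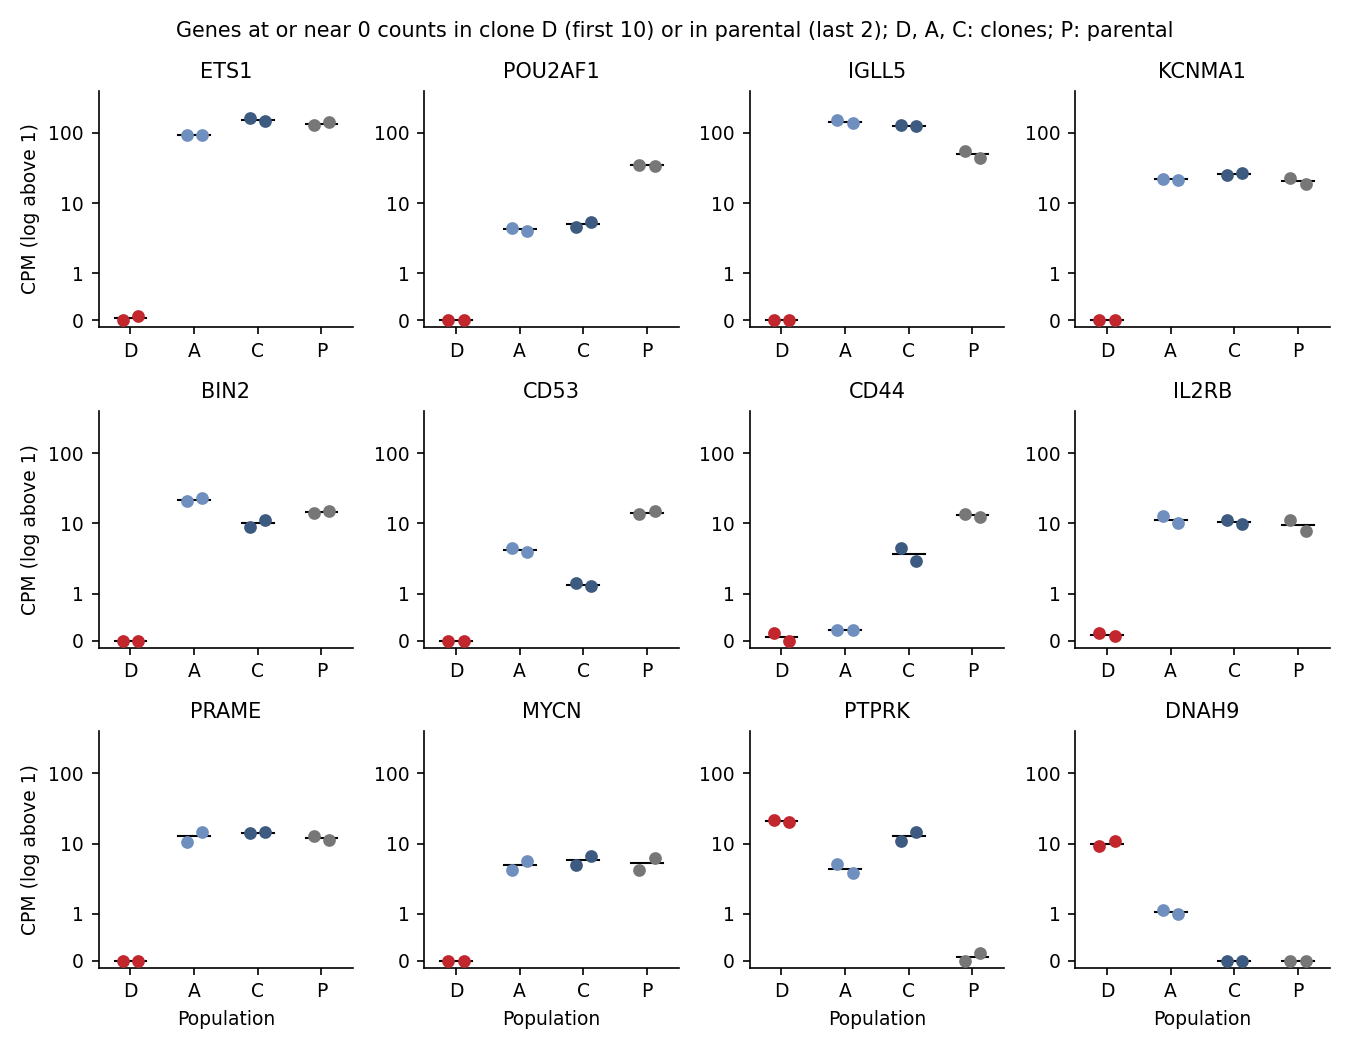
Level in CPM (logarithmic above 1, linear below) of 12 genes in each library of clone D, clone A, clone C and parental cells (P), with a bar at the mean of the 2 libraries. The first 10 genes lie at or near 0 in clone D, and PTPRK and DNAH9 lie at or near 0 in parental cells.

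Around the immunoglobulin lambda locus on chromosome 22, 4 adjacent listed genes were lower in clone D together. IGLL5, an immunoglobulin lambda-like gene (chr22:22887780-22896107), had 0 and 0 counts in clone D, against 314 and 282 counts in parental cells and was at least 289.5-fold lower (adjusted p = 4.08e-06). IGLC1, a lambda constant gene (chr22:22895375-22895834), had 0 and 1 counts in clone D, against 256 and 237 counts in parental cells and was 718-fold lower (95% interval 128 to 28435). These 2 genes overlap on the genome and can share reads, so they are not independent. Clones A and C had more IGLL5 than the parental cells, at 149.9 and 136 CPM in clone A and 129 and 124 CPM in clone C. PRAME, a cancer-testis antigen (chr22:22547701-22559361), had 0 and 0 counts in clone D, against 72 and 72 counts in parental cells and was at least 70.0-fold lower, and ZNF280A had 4 and 4 counts in clone D, against 28 and 30 counts in parental cells (log2FC -3.34, adjusted p = 0.00154). PRAME stood at 10.7 and 14.7 CPM in clone A and 14.0 and 14.7 CPM in clone C, so clone D was the population without it. GNAZ, the next listed gene on the far side of IGLC1, had 4 and 0 counts in clone D, against 8 and 5 counts in parental cells and was not called. ZNF280B on the near side (log2FC 0.18) and BCR beyond GNAZ (log2FC 0.25) were not called, and IGLL1, the lambda5 surrogate light chain, rose (log2FC 0.84, adjusted p = 0.00114). Whole-genome sequencing of the clone was not used here, so loss of DNA and loss of transcription cannot be told apart.

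**Figure D3:**
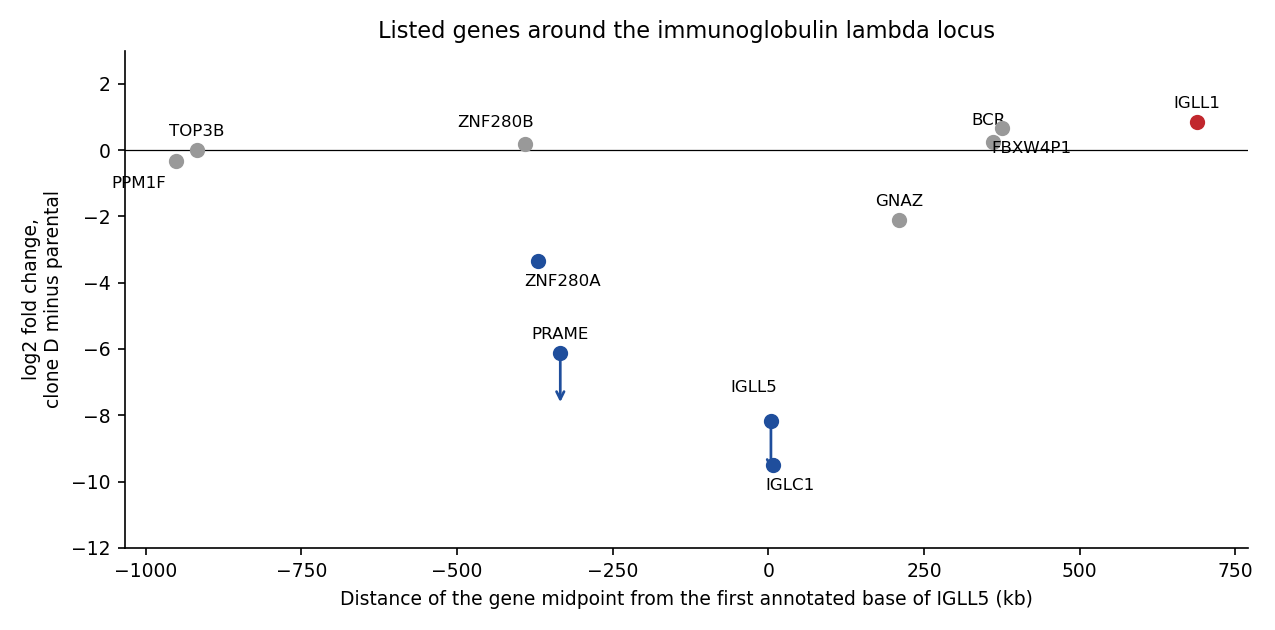
Log2 fold change (clone D minus parental) of the 11 listed genes around IGLL5 against the distance of each gene's midpoint from the first annotated base of IGLL5, in kb. Blue points were called lower, the red point higher and grey points were not called; PRAME and IGLL5, with 0 counts in clone D, stand at their bound with a downward arrow, and IGLC1 at its count ratio.

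Among genes with a mean of at least 3 log2 CPM, the largest falls took in a chromatin enzyme, a gene beside CCND1 and several matrix, receptor and MAPK feedback genes. LEFTY2, a secreted antagonist of Nodal signalling, had 2.52 and 2.67 CPM in clone D, against 37.2 and 37.5 CPM in parental cells (log2FC -3.83, SE 0.13, adjusted p = 1.43e-06). The clone D libraries were lower than all 6 others, and clones A and C were above the parental level at 68.0 and 65.3 CPM in clone A and 75.2 and 80.2 CPM in clone C. USP22, the deubiquitinase of the SAGA coactivator complex (chr17:20999593-21043760), had 7.25 and 12.4 CPM in clone D, against 146 and 134 CPM in parental cells (log2FC -3.77, SE 0.18, adjusted p = 7.28e-06). Its level in the other clones, 157 and 149 CPM in clone A and 153 and 143 CPM in clone C, was near that of the parental cells, and the flanking listed genes SPECC1 (log2FC 0.25) and DHRS7B (log2FC -0.087) were not called.

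MYEOV (chr11:69294138-69367726), a gene first found in myeloma that is often expressed together with CCND1 in t(11;14) cells, had 25.4 and 26.2 CPM in clone D, against 309.9 and 319 CPM in parental cells (log2FC -3.60, SE 0.092, adjusted p = 1.46e-07). Clones A and C had it at 318 and 309 CPM in clone A and 260.1 and 272 CPM in clone C. CCND1 itself, cyclin D1, the third listed gene after it, had 837 and 826 CPM in clone D, against 638 and 709 CPM in parental cells (log2FC 0.30, adjusted p = 0.115), which passed with the replicate block (adjusted p = 0.00437) and in DESeq2 (adjusted p = 0.0293). Of the listed genes between them AP000439.1 fell by 1.70 on the log2 scale (adjusted p = 2.21e-04). IFITM9P, which lies within the span of MYEOV, had a log2FC of 0.69 and was not called (adjusted p = 0.168). The gene on the other side of MYEOV, TPCN2, had a log2FC of 0.12 and was not called.

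CCR2, the receptor of the chemokine CCL2, had 5.36 and 6.68 CPM in clone D, against 59.0 and 55.5 CPM in parental cells (log2FC -3.22, adjusted p = 1.60e-05). The clone D libraries lay below every other library, and clone C (43.7 and 43.5 CPM in clone A and 18.6 and 13.9 CPM in clone C) lay between clone D and clone A. FN1, the matrix protein fibronectin, had 35.5 and 35.7 CPM in clone D, against 191 and 187 CPM in parental cells (log2FC -2.41, adjusted p = 4.11e-06), whereas clones A and C stood at 109 and 115 CPM in clone A and 363 and 423 CPM in clone C. ANXA6, a membrane-binding annexin, had 31.4 and 30.6 CPM in clone D, against 188 and 172 CPM in parental cells (log2FC -2.54), and THY1, a surface glycoprotein, had 7.25 and 7.66 CPM in clone D, against 27.9 and 35.5 CPM in parental cells (log2FC -2.08). FAM171A1, CCDC69, FAM107B and COLGALT2, an enzyme that adds sugar to collagen, fell by 3.11, 2.14, 2.04 and 1.86 on the log2 scale. ASS1, the arginine synthesis enzyme argininosuccinate synthase, had 15.8 and 14.0 CPM in clone D, against 42.5 and 117 CPM in parental cells, and its parental libraries differed from each other by more than 2-fold. Its call (log2FC -2.43, adjusted p = 0.0101) was lost without clone D replicate 3 (adjusted p = 0.0504), and clones A and C were as low as clone D at 17.4 and 12.3 CPM in clone A and 10.4 and 8.96 CPM in clone C.

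Genes of MAPK feedback were low in part. PHLDA1, a growth factor-induced gene, had 10.1 and 8.64 CPM in clone D, against 82.0 and 88.9 CPM in parental cells (log2FC -3.21, adjusted p = 3.38e-06), and DUSP5, a nuclear phosphatase of ERK, had 5.36 and 5.25 CPM in clone D, against 30.9 and 24.7 CPM in parental cells (log2FC -2.39, adjusted p = 8.97e-05). For both, the clone D libraries lay below all others. Of 12 tested members of the MAPK feedback and early response list these 2 fell (16.7%) and 10 did not pass, against 5.16% called over all genes tested, with a list median of -0.0042 against 0.0082 over all genes tested. Without parental replicate 1 they were 2 higher and 2 lower, and with the replicate block 3 and 3.

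Among genes with a mean of at least 3 log2 CPM, the largest rises in clone D included a TRIM pseudogene, cytoskeletal and adhesion genes and the Notch target HES1. TRIM53CP, listed as a member of the tripartite motif family on chromosome 11, had 273 and 235 CPM in clone D, against 0.878 and 0.786 CPM in parental cells (log2FC 8.23, SE 0.19, adjusted p = 9.14e-08). Of the listed TRIM genes beside it TRIM49B rose (log2FC 0.84, adjusted p = 0.00410) and TRIM51GP had a log2FC of 1.96 and was not called. The sequences of these family members were not compared here, and whether they share reads was not tested. LSP1, an actin-binding protein of leukocytes, had 81.9 and 75.8 CPM in clone D, against 2.81 and 5.18 CPM in parental cells (log2FC 4.28, SE 0.21, adjusted p = 7.59e-06). Clones A and C were lower than clone D, at 8.09 and 7.74 CPM in clone A and 12.6 and 12.3 CPM in clone C. PODXL, the sialomucin podocalyxin, had 60.4 and 65.7 CPM in clone D, against 6.32 and 6.76 CPM in parental cells (log2FC 3.27, adjusted p = 4.11e-06), and HES1, a repressor induced by Notch, had 34.2 and 29.9 CPM in clone D, against 3.16 and 3.93 CPM in parental cells (log2FC 3.17, adjusted p = 1.33e-04). In both genes the clone D libraries exceeded all other 6.

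AFAP1-AS1, a long non-coding RNA antisense to AFAP1, had 181 and 174 CPM in clone D, against 25.5 and 19.6 CPM in parental cells (log2FC 2.98, adjusted p = 1.11e-05). In the other clones it was nearly absent at 0.562 and 0.542 CPM in clone A and 1.15 and 0.565 CPM in clone C, so clone D and clones A and C lay on opposite sides of the parental level. Strand use in counting is not given, so its reads cannot be told apart from those of AFAP1. NCR3LG1, the B7-H6 ligand of the NK receptor NKp30, had 27.9 and 34.7 CPM in clone D, against 3.34 and 4.08 CPM in parental cells (log2FC 3.07, adjusted p = 1.48e-04). SNTB1, a syntrophin of the membrane skeleton, had 56.9 and 50.7 CPM in clone D, against 22.1 and 20.9 CPM in parental cells (log2FC 1.32, adjusted p = 0.00131). Clones A and C were lower still, at 6.74 and 5.34 CPM in clone A and 8.20 and 7.06 CPM in clone C.

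GABRB2, a GABA receptor subunit, had 121 and 104 CPM in clone D, against 21.8 and 22.0 CPM in parental cells (log2FC 2.36, adjusted p = 9.85e-06). MYBPC2, a myosin-binding protein, GPR55, a lipid receptor, SNX18, a sorting nexin, and CTTN, the actin regulator cortactin, rose by 2.54, 2.53, 2.17 and 1.92 on the log2 scale. NLRP1, an inflammasome sensor, had 28.9 and 49.9 CPM in clone D, against 8.26 and 11.0 CPM in parental cells (log2FC 2.04, adjusted p = 0.0262), and NMI, a partner of MYC and STAT proteins, had 14.8 and 15.9 CPM in clone D, against 3.69 and 4.24 CPM in parental cells (log2FC 1.95, adjusted p = 0.0169). The call of NLRP1 was lost without clone D replicate 3, parental replicate 1 or parental replicate 3 (adjusted p = 0.0993, 0.185 and 0.147). That of NMI was lost without the same libraries (adjusted p = 0.0563, 0.127 and 0.114).

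PTPRK, a receptor tyrosine phosphatase of cell contacts, and DNAH9, a dynein of cilia, were nearly silent in the parental cells. PTPRK had 136 and 231 counts in clone D, against 0 and 1 counts in parental cells and was 252-fold higher in clone D (95% interval 44.9 to 9973, adjusted p = 4.56e-05). The other clones had it as well, at 5.06 and 3.79 CPM in clone A and 10.9 and 14.7 CPM in clone C, below clone D. DNAH9 had 58 and 122 counts in clone D, against 0 and 0 counts in parental cells and was at least 41.2-fold higher in clone D (adjusted p = 7.87e-04), while the other clones had 1.12 and 1.01 CPM in clone A and 0 and 0 CPM in clone C. ARHGAP24, FGF13 and PEX5L, named after their values were seen, had 1 count over both parental libraries and were 161-fold (95% interval 28.7 to 6396), 78.2-fold (13.8 to 3116) and 46.0-fold (7.97 to 1843) higher in clone D. FGF13 is a fibroblast growth factor relative that stays inside the cell. The difference of PEX5L (adjusted p = 0.00653) did not pass without parental replicate 1 (adjusted p = 0.0569).

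The RNA of the drug target and of the survival proteins that can replace it showed no called difference from the parental cells, while 2 BH3-only genes were lower. BCL2 had 815 and 804 CPM in clone D, against 678 and 723 CPM in parental cells (log2FC 0.21, SE 0.092, adjusted p = 0.281), and MCL1 had 447 and 481 CPM in clone D, against 383 and 411 CPM in parental cells (log2FC 0.22, SE 0.089, adjusted p = 0.226). In both genes the clone D libraries were above the parental ones, and neither difference passed. BCL2L1, which encodes BCL-XL, had 22.2 and 21.1 CPM in clone D, against 14.4 and 14.0 CPM in parental cells (log2FC 0.61, SE 0.15, adjusted p = 0.0573). With the replicate block BCL2L1 and MCL1 passed (adjusted p = 0.00634 and 0.0334) and BCL2 did not (adjusted p = 0.0540). BCL2L2, which encodes BCL-W, had 7.10 and 13.1 CPM in clone D, against 7.03 and 11.2 CPM in parental cells, and the groups overlapped.

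PMAIP1, which encodes NOXA, the BH3-only partner of MCL1, had 26.7 and 25.1 CPM in clone D, against 53.1 and 55.0 CPM in parental cells (log2FC -1.06, SE 0.12, adjusted p = 0.00118). The clone D libraries lay below the parental ones, as did clones A and C at 27.2 and 24.5 CPM in clone A and 40.6 and 35.4 CPM in clone C, and clone D against these clones was not called (log2FC -0.28, adjusted p = 0.145). BMF, a BH3-only protein tied to the cytoskeleton, had 1.89 and 1.16 CPM in clone D, against 5.09 and 3.93 CPM in parental cells (log2FC -1.61, SE 0.34, adjusted p = 0.0291). Its level was low in all libraries, and the call was lost without clone D replicate 3, parental replicate 1 or parental replicate 3 (adjusted p = 0.179, 0.153 and 0.0776). Clone D had less BMF than clones A and C (log2FC -1.56, adjusted p = 0.0115).

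BCL2L11, which encodes BIM, the BH3-only protein bound by BCL2 in many cells, had 168 and 178 CPM in clone D, against 177 and 192 CPM in parental cells (log2FC -0.094, adjusted p = 0.659). The effectors BAX (log2FC -0.16) and BAK1 (log2FC 0.28), the BH3-only genes BID (log2FC -0.11) and BBC3, which encodes PUMA (log2FC 0.092), were not called. BAK1 passed with the replicate block (adjusted p = 0.0373). Of 9 tested members of the BH3-only and effector list 2 fell (22.2%, against 5.16% over all genes), none rose and the median was -0.094, and with the replicate block 1 was higher. Of 14 members of the apoptosome and inhibitor list 1 was called (7.14%, against 5.16% over all genes). This was BIRC3, an inhibitor of apoptosis induced by NF-kB, which rose (log2FC 0.79, adjusted p = 0.0169). BIRC3 had 58.5 and 69.3 CPM in clone D, against 32.0 and 41.8 CPM in parental cells. Its call was lost without clone D replicate 3 or parental replicate 1 (adjusted p = 0.0818 and 0.110), and with the replicate block 2 list members were higher and 1 lower. CFLAR, the caspase-8 inhibitor c-FLIP, had 96.5 and 120.3 CPM in clone D, against 53.4 and 66.8 CPM in parental cells (log2FC 0.85, adjusted p = 0.0137), and its call was lost without the same libraries (adjusted p = 0.0588 and 0.112). Of 19 tested NF-kB genes 2 rose and 1 fell (15.8%, against 5.16% over all genes), with a median of 0.054. With the replicate block 3 were higher and 2 lower. They were 0 and 1 without clone D replicate 3 and 0 and 0 without parental replicate 1.

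Among the targets of myeloma immunotherapy the BCMA transcript was higher in clone D, and others differed in both directions. TNFRSF17, which encodes BCMA, a survival receptor of plasma cells and target of CAR T cells (chr16:11965107-11968068), had 211 and 187 CPM in clone D, against 76.1 and 83.7 CPM in parental cells (log2FC 1.31, SE 0.11, adjusted p = 1.59e-04). The clone D libraries exceeded all 6 others, since clones A and C were at 83.9 and 75.8 CPM in clone A and 80.8 and 73.4 CPM in clone C, and clone D against these clones had a log2FC of 1.34 (adjusted p = 3.01e-05). CD38, the target of daratumumab, had 519 and 499 CPM in clone D, against 308 and 371 CPM in parental cells (log2FC 0.58, SE 0.11, adjusted p = 0.0161). The call of CD38 was lost without clone D replicate 1 or parental replicate 1 (adjusted p = 0.0528 and 0.0812), and clone D against clones A and C was not called (log2FC 0.27, adjusted p = 0.109).

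SLAMF7, a surface receptor bound by elotuzumab, had 199.7 and 252 CPM in clone D, against 141 and 217 CPM in parental cells, with overlapping groups (log2FC 0.34, adjusted p = 0.404; with the replicate block adjusted p = 0.0144). Clone D had more SLAMF7 than clones A and C (log2FC 0.85, adjusted p = 0.00946). SDC1, which encodes the plasma cell antigen CD138, had 177 and 150.1 CPM in clone D, against 190.1 and 197 CPM in parental cells (log2FC -0.25, adjusted p = 0.341; with the replicate block adjusted p = 0.0346), and less than clones A and C (log2FC -0.52, adjusted p = 0.0145). GPRC5D, the target of talquetamab, was near the limit of the libraries with 13 and 15 counts in clone D, against 8 and 8 counts in parental cells and was not called. ITGB7, an integrin beta chain, had 0.158 and 0.445 CPM in clone D, against 3.69 and 2.04 CPM in parental cells (adjusted p = 0.0329), and its call was lost without any 1 of the 4 libraries (adjusted p = 0.0685 to 0.182). CD70, a TNF-family ligand, had 41.0 and 35.3 CPM in clone D, against 51.5 and 61.9 CPM in parental cells (log2FC -0.58, adjusted p = 0.0329), and its call was lost without clone D replicate 3 or parental replicate 3 (adjusted p = 0.164 and 0.212). Of 14 tested antigens 2 rose and 2 fell (28.6%, against 5.16% over all genes), with a median of -0.18. These counts were 1 and 1 without clone D replicate 1 or parental replicate 1, 2 and 0 without clone D replicate 3 or parental replicate 3, and 4 and 7 with the replicate block.

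**Figure D4:**
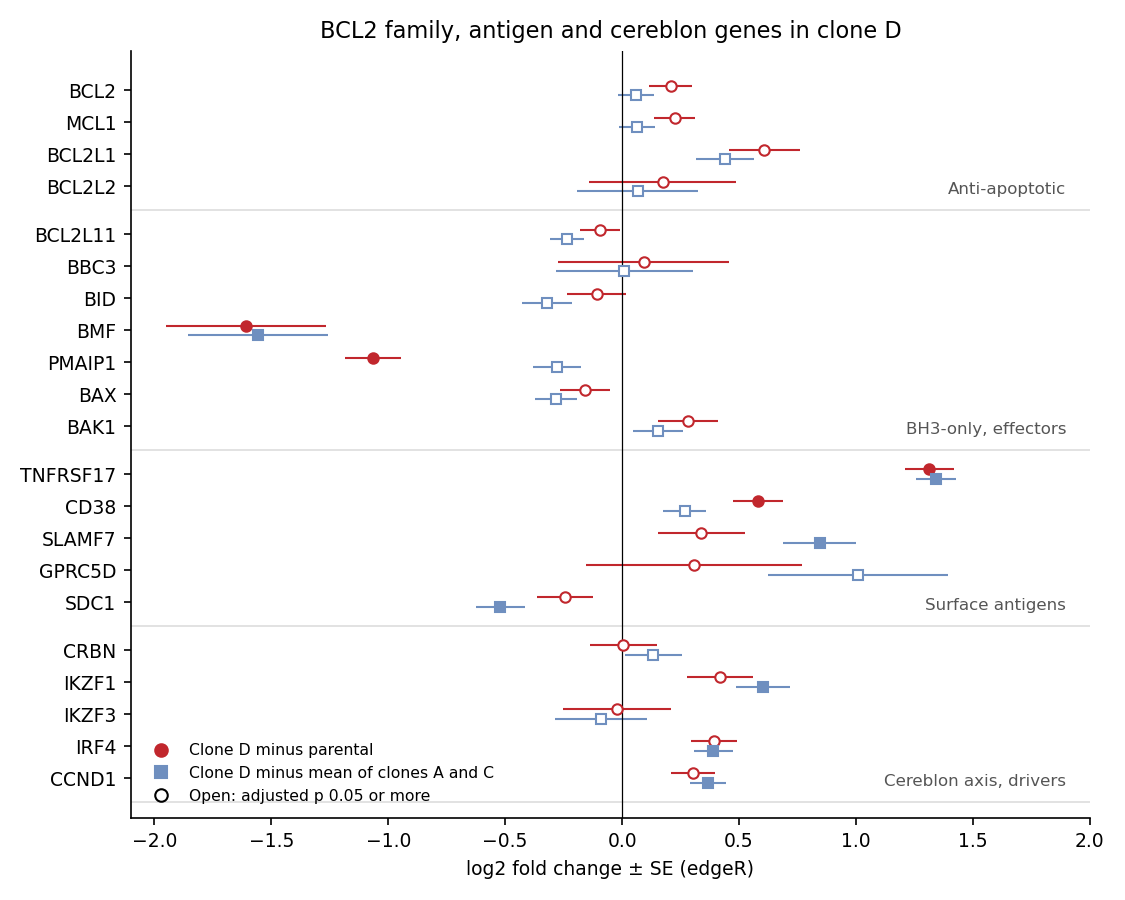
Log2 fold change ± SE of 21 genes in clone D, against parental cells (red circles) and against the mean of clones A and C (blue squares), from edgeR with 2 libraries per population. The SE was derived from the F statistic of the test. Filled symbols have an adjusted p under 0.05; against parental cells these are BMF, PMAIP1, TNFRSF17 and CD38.

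Plasma cell identity genes did not move in 1 direction. JCHAIN, the joining chain of secreted antibodies, had 426 and 434 CPM in clone D, against 788 and 1011 CPM in parental cells (log2FC -1.07, adjusted p = 0.00318), and the clone D libraries were the lowest of the 8. IRF4, a transcription factor that myeloma cells depend on, had 1305 and 1198 CPM in clone D, against 1001 and 903 CPM in parental cells (log2FC 0.39, adjusted p = 0.0563) and passed with the replicate block (adjusted p = 3.53e-04). BACH2, a repressor that delays plasma cell formation, had 99.7 and 90.0 CPM in clone D, against 58.1 and 61.3 CPM in parental cells (log2FC 0.66, adjusted p = 0.00715), and its call was lost without parental replicate 1 (adjusted p = 0.0573). Clones A and C had BACH2 at 82.4 and 72.0 CPM in clone A and 109 and 102 CPM in clone C, and clone D did not differ from them beyond the threshold (adjusted p = 0.713). Of 10 tested identity genes 2 rose, 2 fell (40%, against 5.16% over all genes) and the median was 0.090. Without clone D replicate 1 or parental replicate 1 the counts were 1 and 2, and with the replicate block 4 and 4. Of 14 tested transcription and secretion factors of B and plasma cells BACH2 rose and POU2AF1 and JCHAIN fell (21.4%), with a median of -0.058, and with the replicate block 3 were higher and 6 lower.

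Genes of the lenalidomide pathway were not called. CRBN, which encodes the drug receptor cereblon, had 38.5 and 41.0 CPM in clone D, against 34.6 and 44.6 CPM in parental cells, and IKZF3, which encodes its degraded target Aiolos, had 142 and 228 CPM in clone D, against 183 and 193 CPM in parental cells, with overlapping groups in both. IKZF1, which encodes Ikaros, had 66.6 and 62.4 CPM in clone D, against 53.4 and 43.0 CPM in parental cells (log2FC 0.42, adjusted p = 0.151; with the replicate block adjusted p = 0.00211) and was higher than in clones A and C (log2FC 0.60, adjusted p = 0.0115). None of the 10 list members passed against parental cells in edgeR, and 1 was higher with the replicate block.

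B cell receptor signalling genes differed in both directions. SYK, the kinase next to the receptor, had 0 and 0 counts in clone D, against 11 and 18 counts in parental cells and was at least 14.1-fold lower in clone D (adjusted p = 0.00546), and clone C also had almost none, at 10.9 and 7.66 CPM in clone A and 0 and 0.0706 CPM in clone C. PIK3CD, the PI3K catalytic subunit of leukocytes, had 21.6 and 24.0 CPM in clone D, against 10.4 and 8.64 CPM in parental cells (log2FC 1.27, adjusted p = 0.00314). The clone D libraries had more PIK3CD than any other library. VAV1, a signalling protein of blood cells, and PLCG2, a phospholipase below the receptor, had log2FC values of -0.87 and -0.83 (adjusted p = 0.0298 and 0.0462). The call of VAV1 was lost without clone D replicate 1, clone D replicate 3 or parental replicate 3 (adjusted p = 0.101, 0.0712 and 0.217), and that of PLCG2 without any 1 of the 4 libraries (adjusted p = 0.0893 to 0.228). Of 12 tested members 1 rose (1.86% over all genes) and 3 fell (3.31% over all genes), with a median of -0.30, and with the replicate block 2 were higher and 3 lower. In this list 1 rose and 1 fell without clone D replicate 1, clone D replicate 3 or parental replicate 3.

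Adhesion genes changed in both directions. Of 20 tested adhesion and integrin genes 3 rose and 5 fell (40%, against 5.16% over all genes), with a median of -0.18, and without clone D replicate 1 the counts were 3 and 3. Without clone D replicate 3, parental replicate 1 or parental replicate 3 they were 3 and 2, and with the replicate block 4 and 8. ITGA6, the laminin receptor chain alpha 6, had 44.9 and 39.4 CPM in clone D, against 9.66 and 8.95 CPM in parental cells (log2FC 2.18, adjusted p = 8.14e-05), and the clone D libraries stood above the other 6. CADM1, a cell adhesion protein, had 10.7 and 7.39 CPM in clone D, against 1.41 and 0.943 CPM in parental cells (log2FC 2.93, adjusted p = 0.00123), but clone A was as high at 13.1 and 12.5 CPM in clone A and 6.17 and 5.08 CPM in clone C, and clone D against clones A and C was not called (adjusted p = 0.933). The other called members with the smallest p were CD44 and PTPRK, described above.

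Of 30 tested genes of a list of chemokines, their receptors, cytokine receptors and JAK-STAT signalling 4 rose and 6 fell (33.3%, against 5.16% over all genes), with a median of 0.037. IL6R, the receptor of the myeloma growth factor IL6, had 388 and 352 CPM in clone D, against 188 and 189 CPM in parental cells (log2FC 0.97, SE 0.083, adjusted p = 2.15e-04). All other libraries were lower, since clones A and C stood at 161 and 162 CPM in clone A and 161 and 158 CPM in clone C. IL2RG, the common gamma chain of cytokine receptors, had 90.1 and 85.1 CPM in clone D, against 151 and 130.4 CPM in parental cells (log2FC -0.69, adjusted p = 0.00595), and its call was lost without parental replicate 1 (adjusted p = 0.0518). CXCR3, a chemokine receptor of activated lymphocytes, had 0 and 0 counts in clone D, against 19 and 15 counts in parental cells and was at least 16.5-fold lower in clone D (adjusted p = 0.00212). The list counts were 2 and 3 without parental replicate 1, 2 and 5 without parental replicate 3 and 9 and 7 with the replicate block.

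Interferon-stimulated genes moved both ways. IFI16, a DNA sensor, had 47.9 and 48.9 CPM in clone D, against 97.7 and 88.8 CPM in parental cells (log2FC -0.94, adjusted p = 6.28e-04), and SAMD9L, an antiviral growth suppressor, had 105 and 107 CPM in clone D, against 63.1 and 66.5 CPM in parental cells (log2FC 0.71, adjusted p = 0.00662). The call of SAMD9L was lost without parental replicate 1 (adjusted p = 0.0622). PARP14, an ADP-ribosyltransferase, and USP18, which removes ISG15 from proteins, had log2FC values of 0.94 and 2.57 (adjusted p = 0.0189 and 0.0448), and both calls were lost without any 1 of the 4 libraries (up to 0.129 and 0.218). Of 20 tested members 3 rose and 1 fell (20%, against 5.16% over all genes), and 1 rose and 1 fell without any 1 of the libraries, with a median of 0.11 in the full set. With the replicate block 5 were higher and 3 lower.

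Antigen presentation and secretory lists had called shares of 5.88% for MHC class II, 11.8% for MHC class I and 10% for the unfolded protein response, against 5.16% over all genes tested. CTSS, cathepsin S of the MHC class II pathway, had 21.6 and 20.6 CPM in clone D, against 56.0 and 62.7 CPM in parental cells (log2FC -1.50, adjusted p = 4.39e-04), and it was the only called gene of the 17 on that list in edgeR; leaving out clone D replicate 1 gave 0 higher and 2 lower, and with the replicate block 2 were higher and 4 lower. PSMB9, an immunoproteasome subunit, rose (log2FC 0.86, adjusted p = 0.0364) and PDIA3, a chaperone of MHC class I loading, fell (log2FC -0.47, adjusted p = 0.0328). The call of PSMB9 was lost without clone D replicate 1, parental replicate 1 or parental replicate 3 (up to 0.214), and that of PDIA3 without clone D replicate 3, parental replicate 1 or parental replicate 3 (up to 0.158). HERPUD1, a protein of endoplasmic reticulum-associated degradation, had 60.1 and 59.2 CPM in clone D, against 102 and 102 CPM in parental cells (log2FC -0.77, adjusted p = 0.00114). EIF2AK3, which encodes the stress kinase PERK, had a log2FC of 0.55 (adjusted p = 0.0204), and its call was lost without clone D replicate 1, clone D replicate 3 or parental replicate 1 (up to 0.0812). Of 30 tested genes of the unfolded protein response and folding 1 rose and 2 fell, with a median of -0.031, and with the replicate block 2 were higher and 4 lower. They were 0 and 2 without either clone D library, 0 and 1 without parental replicate 1 and 1 and 1 without parental replicate 3. Of 17 MHC class I genes 1 rose and 1 fell, with a median of 0.036, and with the replicate block 3 were higher and 1 lower. Without clone D replicate 3 the counts of this list were 3 and 0, without clone D replicate 1 they were 0 and 1, and without either parental library no member passed in edgeR.

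The fatty acid list had 27.8% of its genes called, the cholesterol list 4.17% and the oxidative phosphorylation list 2.5%, against 5.16% over all genes tested. SCD, which desaturates fatty acids, had 565 and 485 CPM in clone D, against 889.6 and 690.3 CPM in parental cells (log2FC -0.59, adjusted p = 0.0387), and its call was lost without clone D replicate 3 or parental replicate 1 (adjusted p = 0.162 and 0.188). FADS1, a second desaturase, had 147 and 150.2 CPM in clone D, against 204 and 197 CPM in parental cells (log2FC -0.43, adjusted p = 0.0157), and its call was lost without any 1 of the 4 libraries (adjusted p = 0.0638 to 0.102). Of 18 tested fatty acid genes 1 rose and 4 fell, with a median of -0.21. Leaving out clone D replicate 1 gave 0 higher and 2 lower, clone D replicate 3 gave 1 and 0, parental replicate 1 gave 0 and 0, and parental replicate 3 gave 0 and 3. The replicate block gave 1 and 6. Of 24 cholesterol synthesis genes CYP51A1 fell (log2FC -0.60, adjusted p = 0.0258), with a list median of -0.16. Its call was lost without clone D replicate 3, parental replicate 1 or parental replicate 3 (up to 0.153), and 1 was higher and 8 were lower with the replicate block. Of 40 oxidative phosphorylation genes NDUFV2, a complex I subunit, fell (log2FC -0.48, adjusted p = 0.0344), a call lost without clone D replicate 3, parental replicate 1 or parental replicate 3 (up to 0.172), and 4 were lower with the replicate block.

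Cell division and housekeeping lists held few or no called genes. Among 25 S phase, 24 G2 and mitosis, 30 proteasome, 19 cytosolic heat shock, 18 p53 target, 22 ABC transporter and 17 mitochondrial cristae and dynamics genes, none passed in edgeR, and their medians ran from -0.17 in S phase to 0.17 in p53 targets. With the replicate block 1 S phase gene was higher and 5 were lower, and 4 p53 targets were higher and 2 lower. In the other 5 of these lists the block gave 1 to 3 higher and 1 to 2 lower genes each. Leaving out 1 library brought up 1 ABC transporter (lower, without clone D replicate 1) and 1 heat shock gene (higher without parental replicate 1, lower without parental replicate 3). Of 8 tested genes of a list of NK and T cell contact ligands, which does not hold NCR3LG1 or CD70, none passed, and with the block 1 was higher and 2 were lower. DDIT4, a stress-induced inhibitor of mTOR, was the only called gene of 19 of the amino acid stress response (log2FC -0.90, adjusted p = 0.0193), PDK1, a brake on pyruvate use, of 27 of glycolysis and hypoxia (log2FC 0.52, adjusted p = 0.0296), and ARID1B, a chromatin remodelling subunit, of 28 chromatin modifiers (log2FC 0.47, adjusted p = 0.0246). Each of these calls was lost without parental replicate 1 (adjusted p = 0.0999, 0.139 and 0.146) and without at least 1 other library.

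RB1, the retinoblastoma repressor of cell cycle entry, had 83.9 and 74.1 CPM in clone D, against 50.9 and 52.2 CPM in parental cells (log2FC 0.61, adjusted p = 0.0184), and E2F2, a factor it holds, had 74.4 and 73.3 CPM in clone D, against 41.5 and 54.4 CPM in parental cells (log2FC 0.62, adjusted p = 0.0284). The call of RB1 was lost without clone D replicate 1, parental replicate 1 or parental replicate 3 (up to 0.101), and that of E2F2 without clone D replicate 1, clone D replicate 3 or parental replicate 1 (up to 0.117). Of 14 tested genes of the cyclin D and RB axis these 2 rose and none fell (14.3%, against 5.16% over all genes), with a median of 0.25. With the replicate block 6 were higher.

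Chromosomes 13 and 18 stood apart from the others in clone D. The median log2FC of 195 genes on chromosome 13 was 0.18, and that of 142 genes on chromosome 18 was -0.14, while every other chromosome lay between -0.018 and 0.052. In clones A and C the same chromosomes had medians of -0.029 and -0.014 for chromosome 13 and -0.018 and 0.0025 for chromosome 18. By windows of 20 Mb, chromosome 13 had medians of 0.18, 0.20 and 0.32 from 20 to 80 Mb and -0.021 from 100 to 120 Mb. RB1, at chr13:48303726-48599436, lies in the window of 40 to 60 Mb. In that window 4 of 61 genes rose and none fell, against 1.86% higher and 3.31% lower over all genes tested. Chromosome 18 had medians of -0.22, -0.18 and -0.14 from 0 to 60 Mb and 0.15 from 60 to 80 Mb. PMAIP1, at chr18:59899948-59904306, lies in the window of 40 to 60 Mb and BCL2, at chr18:63123346-63320128, in that of 60 to 80 Mb. Where within these windows the values change was not tested. Outside these chromosomes the largest window median was 0.17, over 138 genes from 0 to 20 Mb on chromosome 1, where 9 rose and 2 fell. The lowest was -0.11, over 48 genes from 100 to 120 Mb on the X chromosome. These medians are a description with no test, and DNA copy number was not used here.

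**Figure D5:**
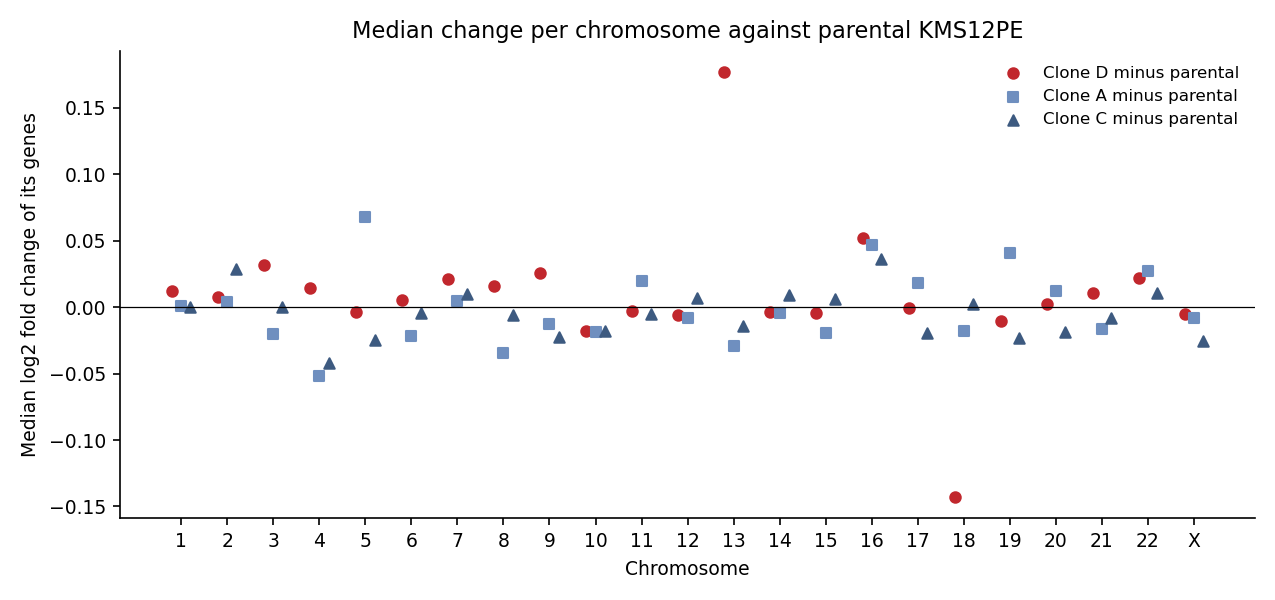
Median log2 fold change against parental cells of the tested genes of each chromosome, for clone D (red), clone A (light blue squares) and clone C (dark blue triangles). In clone D chromosome 13 stands at 0.18 and chromosome 18 at -0.14, outside the range of the other chromosomes; the 3 comparisons share the parental libraries.

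Clone D also differed from the other resistant clones, in a comparison that does not use the parental libraries. Against the mean of clones A and C, 534 genes were higher (4.35%) and 670 lower (5.46%) in clone D at an adjusted p under 0.05. This comparison and that with parental cells share the clone D libraries, so they are not independent. It sets 2 libraries against 4, and its differences can lie in clone A or C. From 0 to 20 Mb on chromosome 2 its window median was -0.46. Against parental cells the medians there were 0.0040 in clone D, 0.29 in clone A and 0.57 in clone C. From 80 to 100 Mb on chromosome 17 its median was 0.56. Against parental cells the medians there were 0.073, 0.064 and -0.97. These windows were chosen after their values were seen. Of the genes called against parental cells, 195 higher and 340 lower genes were called in the same direction against clones A and C. A further 32 higher and 65 lower genes did not pass there, among them PMAIP1, CD38, BACH2, CADM1 and ASS1. The root mean square log2 difference over genes was 0.62 between clone D and parental cells, 0.64 between clone D and clone A, and 0.66 between clone D and clone C. Between clone A and clone C it was 0.38, and clones A and C lay 0.39 and 0.41 from the parental cells. The counts of this comparison ran from 297 to 389 higher and from 367 to 508 lower when 1 library was left out, with the lowest of both, 297 and 367, without clone D replicate 3. Without clone D replicate 1 or clone A replicate 3 the higher genes numbered 347 and 322. With the replicate block the counts were 1565 higher and 1543 lower.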

How the data were processed

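Libraries were prepared from poly-A RNA with a Roche Kapa mRNA kit, per the labels' protocols. The authors deposited a table of counts per gene symbol for KMS12PE, taken as unnormalised because it holds whole numbers whose sums vary from library to library. The genome build was hg38, per the submitters' processing notes. The aligner, counter, annotation and strand setting were not given in the sources used here.

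All 8 KMS12PE libraries were fitted together in edgeR 4.0.16 (R 4.3.3) with filterByExpr, TMM scaling, estimateDisp and a quasi-likelihood test, 2-sided, with 1 mean per population. Of 12592 genes listed 313 did not pass the filter. Adjustment was by Benjamini-Hochberg over the 12279 genes that passed, with calls under 0.05. The biological coefficient of variation was 11.9%. The contrasts were clone D minus parental and clone D minus the mean of clones A and C. Alternatives were RLE scaling, no filter, DESeq2 1.42.0, replicate number as a block, the 4 libraries alone and leaving out each library. Samples with 1 replicate number deviated together (correlations of the replicate differences 0.45 to 0.75 over 9063 genes, 0.49 between clone D and parental). This is a hint of pairing from the data that the labels do not state. The main fit did not pair the libraries, and replicate number was a block only in that alternative. The scripts were tested on simulated counts.

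The members, the 34 gene lists and the naming rule were chosen with earlier results of these data known. Named are the 14 largest rises and falls among called genes with a mean level of 3 log2 CPM or more, a set list of genes of the BCL2 family, antigens, the cereblon pathway, IRF4 and CCND1, up to 4 called genes per list with the smallest adjusted p, up to 10 genes called in both contrasts with 1 sign, and genes with 0 counts in either population and a mean of at least 20 counts in the other. ETS1, IGLC1 and the neighbours of lost genes were named after their values were seen. Positions come from GENCODE v29 in GRCh38, matched by symbol for 11207 genes.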

Additional observations from a re-analysis of the deposited data

Results flagged for a closer look

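For 10 genes the change of clone D differed from that of clones A and C by the test of the difference itself, clone D minus the mean of clones A and C in edgeR. These were selected as the largest such differences among genes with a mean of at least 3 log2 CPM that were called against parental cells too, so their size is a description. LEFTY2 had a log2FC of -4.78 (adjusted p = 7.53e-08), USP22 of -3.87 (2.59e-06), MYEOV of -3.48 (7.53e-08) and FAM171A1 of -3.41 (5.03e-06), all lower in clone D. TRIM53CP had a log2FC of 6.73 (1.01e-08), AFAP1-AS1 of 8.01 (4.38e-08), HES1 of 3.44 (1.08e-05), PODXL of 3.17 (5.21e-07), SNTB1 of 2.99 (2.31e-06) and LSP1 of 2.99 (3.94e-06), all higher in clone D. In AFAP1-AS1 and SNTB1 clones A and C lay below the parental cells and clone D above them. Each value in brackets is an adjusted p.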

How the results depend on the processing

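Against 228 higher and 406 lower genes in clone D than in parental cells, RLE scaling gave 238 and 405, no filter 258 and 402, and DESeq2 203 and 334. The replicate block gave 894 and 1125, and held all genes called without it. The 4 libraries alone gave 122 and 212, and 21 named genes lost their call there. Of 103 named genes, 86 were called in the main fit and 101 were tested in the 4 libraries alone. CD3G, called in the main fit, was not among those 101. Leaving out 1 library gave 99 to 160 higher and 199 to 312 lower genes, with the lone library assumed to vary like the other populations. Against clones A and C, 534 and 670 became 546 and 670 with RLE, 576 and 654 without a filter, 420 and 545 with DESeq2, 1565 and 1543 with the block, and 297 to 389 and 367 to 508 when 1 library was left out. Fits of the 4 libraries alone or with 1 library left out hold fewer libraries, and why the counts moved was not tested. Of 86 called named genes 55 kept their call without any 1 of the 4 libraries and 31 lost it at least 1 time. All 103 named genes kept direction and call with RLE. Without a filter PLCG2 lost its call and IRF4 gained it, and DESeq2 lost BMF, PLCG2, DDIT4, PARP14, USP18, LPCAT3 and CD3G and gained IRF4 and CCND1. The block added MCL1, BCL2L1, BAK1, SLAMF7, SDC1, IKZF1, IRF4 and CCND1 and lost none. Direction reversed when 1 library was left out in 5 uncalled genes, whose log2FC ran from -0.36 to 0.56 in BCL2L2, from -0.29 to 0.34 in BBC3, from -0.27 to 0.052 in BID, from -0.15 to 0.21 in CRBN, from -0.41 to 0.27 in IKZF3. Depth limits clone D and parental cells most for genes under about 3 counts per library, or 0.27 to 0.53 CPM.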

Other observations

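Stretches of neighbouring genes changed together in clone D at 7 places besides the lambda locus, taking at least 3 adjacent tested genes called with 1 sign. These genes were chosen after their values were seen. Of the 7 stretches 1 kept all its calls without any 1 of the 4 libraries, that of 5 genes on chromosome 2; the other 6 lost at least 1 member in at least 1 of these fits. On chromosome 2, 5 adjacent genes were lower, among them the sodium channel genes SCN3A, with 0 and 4 counts in clone D, against 203 and 227 counts in parental cells, and SCN2A, with 0 and 1 counts in clone D, against 22 and 15 counts in parental cells. Their neighbour COBLL1 had 10 and 35 counts in clone D, against 125 and 129 counts in parental cells (log2FC -3.08, adjusted p = 1.59e-04). GALNT3, at the end of this stretch, had 8 and 16 counts in clone D, against 45 and 53 counts in parental cells (log2FC -2.57), but clone D did not differ from clones A and C there beyond the threshold (adjusted p = 0.932).

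The following stretches are among those with such losses. Those of TLR6, TMEM156 and KLHL5 on chromosome 4 and of CALCRL, TFPI and COL5A2 on chromosome 2, both lower, are not described further. RNF187, a ubiquitin ligase, had 721 and 1060 counts in clone D, against 2053 and 1949 counts in parental cells (log2FC -1.68, adjusted p = 7.92e-05). It lies beside the histone genes HIST3H2A (log2FC -2.50) and HIST3H2BB (log2FC -3.41). Of these, HIST3H2BB alone did not pass without clone D replicate 3 or either parental library. The complement protease genes C1R and C1S lie beside each other, with 8 and 17 counts in clone D, against 36 and 33 counts in parental cells for C1R and 0 and 0 counts in clone D, against 7 and 16 counts in parental cells for C1S. Their stretch needs LPCAT3, whose call was lost without clone D replicate 1, clone D replicate 3 or parental replicate 1 and in DESeq2, and C1R and C1S each lost theirs in at least 1 of these fits. TNFSF9, the ligand of the costimulatory receptor 4-1BB, had 11 and 13 counts in clone D, against 52 and 36 counts in parental cells (log2FC -2.39, adjusted p = 0.00903), beside CD70 and TUBB4A, and none of these 3 passed without clone D replicate 3. The only higher stretch held CSRP2, E2F7 and NAV3, with log2FC values of 1.04, 0.74 and 1.24, of which E2F7 did not pass without parental replicate 1. How often such stretches arise without a shared change was not tested.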
